A study of Arabidopsis thaliana with 12 samples.

Results

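After 3 h of light, dark-grown Arabidopsis thaliana seedlings of the line 35S:miR396a were set beside the wild type Col-0. The comparison holds the genes that the authors called between these groups, taken from their deposited table of this pair. That table lists 7004 genes, of the 11417 genes listed in any table of the study. Of these, 4051 were higher and 2953 were lower in illuminated 35S:miR396a. In the annotation, 24.9% of the 27432 protein-coding nuclear genes were listed, 14.2% as higher and 10.7% as lower. These shares are the background for every count of list or family members below. Among the 8798 genes with a value in both illuminated groups, 79.6% were listed, 46% as higher and 33.6% as lower, since genes called in no table have no value here. Of the listed genes 57.8% were higher and 42.2% lower. With ratios centred on the median of all genes with both values, the listed genes past 2-fold were 40.3% higher and 59.7% lower. Only genes already listed were counted, so this centring could remove higher calls but could add no lower ones. In the dark table of the same genotypes, 7.57% of protein-coding nuclear genes were listed, 3.23% as higher and 4.34% as lower.

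In 35S:miR396a the viral 35S promoter, active in nearly all plant tissues, drives the microRNA miR396a; how many independent lines were used is not stated in the labels. All seedlings, of ecotype Columbia, grew for 4 days in darkness on half-strength MS medium with 1% sucrose. Illuminated 35S:miR396a and illuminated Col-0 then received 3 h of light, and dark 35S:miR396a and dark Col-0 received none. Each group has 3 libraries called biological replicates. The deposited tables give 1 mean FPKM, fragments scaled to transcript length and library size, for each gene and group, and no value for a single library. Hence no SD stands beside a level, and neither overlap between samples nor a difference beyond the spread between replicates could be assessed. "Listed" means a fold beyond 2 and a q-value under 0.001 in the authors' deposited table, whose p-values cover counting error only.

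MicroRNAs of the miR396 family guide the cleavage and repression of messenger RNAs of growth-regulating factors (GRFs), plant transcription factors that act with GIF coactivators to promote cell proliferation in young organs. The first hours of light turn an etiolated seedling from elongation in darkness toward photosynthesis. In that switch chlorophyll precursors must be matched by the proteins that bind them, because free porphyrins in light produce singlet oxygen, a reactive oxygen species that damages plastids. By its title the study asks how miR396 and the GRFs act when brassinosteroid, a growth hormone, limits such damage in greening seedlings.

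The sequence that the line overexpresses is shown with the best site in each of its known targets. The mature miR396a lies at chr2:4142443-4142463 (TAIR10.1, minus strand) and miR396b at chr5:13611808-13611828 (plus strand). Capitals mark the seed, bases 2 to 8 from the 5′ end. The sequences below were read from the RefSeq TAIR10.1 genome.
miR396a-5p: uUCCACAGcuuucuugaacug
miR396b-5p: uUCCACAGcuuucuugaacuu
Both share the seed and differ by 1 substitution, G21U, counted from the 5′ end of miR396a.

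The 8 transcripts listed as miR396 targets were searched for their best site. In the sites, written 5′ to 3′ as DNA, capitals mark bases that pair with miR396a by Watson-Crick rules and lower case marks the others.
GRF4 (chr3:19617293-19617314, minus strand): CcGTTCAAGAAAGCcTGTGGAA
GRF3 (chr2:15271745-15271766, minus strand): CcGTTCAAGAAAGCcTGTGGAA
GRF1 (chr2:9729944-9729965, plus strand): tcGTTCAAGAAAGCcTGTGGAA
GRF2 (chr4:17726404-17726425, minus strand): tcGTTCAAGAAAGCcTGTGGAA
GRF7 (chr5:21795145-21795166, plus strand): tcGTTCAAGAAAGCaTGTGGAA
GRF8 (chr4:12538649-12538670, plus strand): tcGTTCAAGAAAGCaTGTGGAA
GRF9 (chr2:18746292-18746313, plus strand): acGTTCAAGAAAGCTtGTGGAA
bHLH74 (chr1:3305399-3305519, minus strand, spanning an intron): tgGaaCAAGAAAGCTGTGGAg
All 8 sites lie in coding exons. The 7 GRF sites have 22 bases, 1 of them extra to the microRNA. GRF7 and GRF8 have the same site.

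Of the 8 targets, 6 were listed lower in illuminated 35S:miR396a and none was listed higher, beside the background of 10.7% listed lower. Their median log2 FPKM ratio, 35S:miR396a over Col-0, was −1.77, against a median of 0.61 over the 8606 genes above 0 in both illuminated groups. GRF4 averaged 0.323 FPKM in illuminated 35S:miR396a and 3.58 in illuminated Col-0, a level 11.1 times as high in Col-0. GRF2 had 0.670 FPKM in illuminated 35S:miR396a and 4.70 in illuminated Col-0. The transcription factor bHLH74 stood at 1.58 FPKM in illuminated 35S:miR396a, against 9.56 in illuminated Col-0. GRF3, the highest in FPKM of the GRFs with a value after light, had 4.00 FPKM in illuminated 35S:miR396a and 15.3 in illuminated Col-0. GRF9 and GRF1 were the least changed of the 6, with log2 ratios of −1.61 and −1.54.

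GRF7 and GRF8 were not listed after light. GRF7 stood at 0.230 FPKM in illuminated 35S:miR396a and 0.186 in illuminated Col-0, but at 3.21 FPKM in dark 35S:miR396a and 24.1 in dark Col-0. In Col-0 GRF8 was likewise lower after light than in the dark, while in 35S:miR396a it was low in both, with 0.220 FPKM in illuminated 35S:miR396a, 0.206 in illuminated Col-0, 0.173 in dark 35S:miR396a and 1.41 in dark Col-0. In the dark table these 2 were listed lower in 35S:miR396a, and 4 targets (GRF2, GRF4, GRF9 and bHLH74) were listed lower in both tables. The reads behind the lowest values can be solved from the authors' deposited folds and p-values. For GRF4 they were 66 reads in illuminated 35S:miR396a and 666 in illuminated Col-0, pooled over the libraries. For GRF9 they were 128 reads in illuminated 35S:miR396a and 371 in illuminated Col-0.

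Outside the target list, GRF6, whose best match pairs at 15 bases, was listed lower at 0.130 FPKM in illuminated 35S:miR396a and 1.14 in illuminated Col-0, resting on 15 pooled reads in illuminated 35S:miR396a and 124 in illuminated Col-0. GRF5, GIF2 and GIF3 have no value in these groups. GIF1, the coactivator that binds GRFs, went the other way, at 17.3 FPKM in illuminated 35S:miR396a and 5.79 in illuminated Col-0, a ratio under 2-fold after centring. The longest transcript of each of 31346 genes was searched for a site, with a penalty of 1 per mismatch or extra base and 0.5 per G:U pair. At a penalty of up to 3 the search found 15 transcripts, the 7 GRFs among them. The bHLH74 site, with 16 of 21 bases paired and a penalty of 3.5, was beyond that limit. Of the other 8 transcripts found, AT5G58980 was listed higher, and FLU and RD21B were listed lower. FLU, chosen after its values were seen, a negative regulator of chlorophyll precursor synthesis, had 17.04 FPKM in illuminated 35S:miR396a and 101 in illuminated Col-0, with 24.8 in dark 35S:miR396a and 85.2 in dark Col-0. At a penalty of up to 4, 14.8% of 183 transcripts outside the GRF and bHLH74 lists were listed higher and 13.1% lower, near the background in each direction. A match is a description of letters and not a shown site of cleavage.

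The labels name the tissue as hypocotyl and the plants as seedlings. Genes that mark cotyledon mesophyll were abundant in both illuminated groups: LHCB1.1, RBCS1A and CA1 summed to 2450 FPKM in illuminated 35S:miR396a and 13835 in illuminated Col-0. All 3 are also members of the photosynthesis lists below, so they cannot separate tissue from that result. Whether cotyledons were in the samples was not tested. Of 34 markers of cell types, 6 were listed higher and 10 lower. The 3 epidermal markers were all lower and summed to 199.6 FPKM in illuminated 35S:miR396a and 617 in illuminated Col-0. The guard-cell markers FAMA and MYB60 were lower as well, at 2.14 FPKM summed in illuminated 35S:miR396a and 9.14 in illuminated Col-0. The seed-reserve markers were all higher, summing to 84.6 FPKM in illuminated 35S:miR396a and 13.2 in illuminated Col-0. The shoot-apex marker CLV3 was higher, at 0.883 FPKM in illuminated 35S:miR396a and 0.316 in illuminated Col-0. The 3 phloem and 3 xylem markers are in no table and no root marker has a value in both illuminated groups, so these tissues could not be compared, although the root gene PYK10 stood at 6636 FPKM in illuminated 35S:miR396a. In bulk RNA, fewer cells of a type and less RNA per cell cannot be told apart. The part of these shifts in the results was not tested. Pooled depth, solved from the deposited folds and p-values, was about 127000000 fragments for illuminated 35S:miR396a and 119000000 for illuminated Col-0. Reads were solved for 4332 listed genes, of which 217 rested on under 30 reads in the larger group. Genes listed at 0 in a group were not solved, so more listed genes may rest on few reads.

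Nuclear genes of the photosynthetic apparatus were lower in illuminated 35S:miR396a almost throughout. All 25 listed chloroplast-genome identifiers were higher, beside 57.8% of all listed genes, while unlisted ones were not counted. The 25 had a median log2 ratio of 1.28, under 2-fold after centring. Their sums were 211 FPKM in illuminated 35S:miR396a and 87.6 in illuminated Col-0. By sum these identifiers were already higher in the dark, with 228 FPKM in dark 35S:miR396a and 49.7 in dark Col-0 (24 of the 25 with a value). Of 75 nuclear genes in 4 lists (antenna proteins, photosystem subunits, electron carriers with ATP synthase, and the Calvin cycle), 73 were listed lower and 1 was listed higher, with a median log2 ratio of −2.55, or 5.86-fold. The 21 members of the light-harvesting antenna, whose proteins hold chlorophyll, were all listed lower. Their FPKM summed to 14467 in illuminated 35S:miR396a and 62748 in illuminated Col-0, with 27079 in dark 35S:miR396a and 19765 in dark Col-0. The 22 photosystem subunits were also all listed lower, with sums of 6219 FPKM in illuminated 35S:miR396a, 33902 in illuminated Col-0, 7788 in dark 35S:miR396a and 7186 in dark Col-0. In the dark table none of the 22 photosystem subunits was listed, and of the 21 antenna genes 3 were listed higher. The level of these genes after light in 35S:miR396a was thus close to the dark level of both genotypes for the photosystems.

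**Figure D1:**
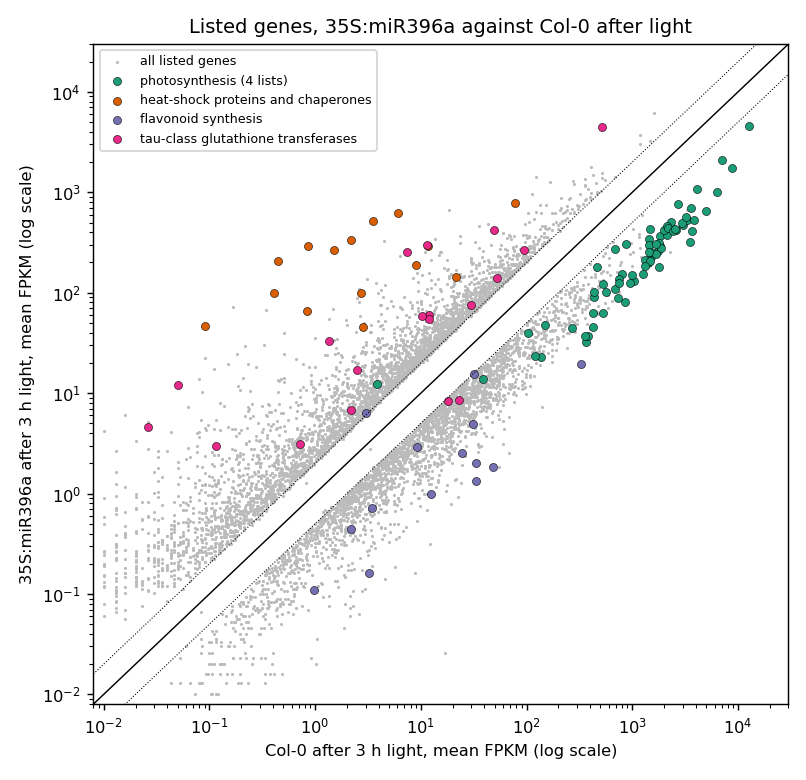
Mean FPKM of each listed gene above 0 in both groups, illuminated 35S:miR396a (vertical) against illuminated Col-0 (horizontal), both on log scales; the solid line is equality, the dotted lines are 2-fold, and coloured points are members of 4 sets of genes. The photosynthesis genes lie below the lower dotted line at high FPKM apart from 1 (CP12-3), and the heat-shock genes lie above the upper one.

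Among antenna genes the largest ratio was that of LHCB2.4, at 81.6 FPKM in illuminated 35S:miR396a and 855 in illuminated Col-0. LHCB1.2, one of the near-identical LHCB1 genes of photosystem II, had 650 FPKM in illuminated 35S:miR396a and 4929 in illuminated Col-0. PSBS, which sets the rate at which excess light is dissipated as heat, had 261 FPKM in illuminated 35S:miR396a and 1746 in illuminated Col-0. The smallest ratio belonged to LHCB1.3, the most abundant antenna transcript, with 4561 FPKM in illuminated 35S:miR396a, 12745 in illuminated Col-0, 17768 in dark 35S:miR396a and 11174 in dark Col-0. Reads of LHCB1 and of the small Rubisco subunits can be split between near-identical copies, so single values in these families are uncertain while their sum is less so.

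The photosystem subunits ranged from a log2 ratio of −3.05 for PSAH2 to −1.83 for PSBR. PSAH2, a subunit of photosystem I, averaged 153 FPKM in illuminated 35S:miR396a and 1264 in illuminated Col-0, and was at 128 in dark 35S:miR396a and 99.5 in dark Col-0. PSBO1, of the oxygen-evolving complex, had 443 FPKM in illuminated 35S:miR396a and 2192 in illuminated Col-0. Among electron carriers, 11 of 12 were listed lower. FNR2, ferredoxin NADP reductase, was the extreme at 32.6 FPKM in illuminated 35S:miR396a and 369 in illuminated Col-0. The main leaf ferredoxin FD2 had 435 FPKM in illuminated 35S:miR396a and 2532 in illuminated Col-0.

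Of the 20 Calvin cycle and Rubisco genes, 19 were listed lower. RBCS1A, the most abundant small subunit of Rubisco, had 1739 FPKM in illuminated 35S:miR396a, 8745 in illuminated Col-0, 4094 in dark 35S:miR396a and 5353 in dark Col-0. RBCS2B had 319.9 FPKM in illuminated 35S:miR396a and 3541 in illuminated Col-0, the largest ratio of the list. Rubisco activase RCA stood at 529 FPKM in illuminated 35S:miR396a and 3870 in illuminated Col-0. CP12-3, of a family of small proteins that bind Calvin cycle enzymes, was the exception, at 12.2 FPKM in illuminated 35S:miR396a and 3.81 in illuminated Col-0. In photorespiration, which recycles the product of Rubisco's oxygenation, 11 of 12 were listed lower, SHM1 furthest, at 82.0 FPKM in illuminated 35S:miR396a and 641 in illuminated Col-0.

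Nuclear genes for plastid ribosomes and plastid transcription were mostly lower too. All 22 chloroplast ribosomal proteins encoded in the nucleus were listed lower. PSRP2, a plastid-specific ribosomal protein, had 43.2 FPKM in illuminated 35S:miR396a and 225.9 in illuminated Col-0. Of 12 plastid regulators and sigma factors, 10 were listed lower. The sigma factor SIG2, which directs plastid RNA polymerase, had 9.96 FPKM in illuminated 35S:miR396a and 66.6 in illuminated Col-0. GLK1, a transcription factor of photosynthesis genes, had 6.49 FPKM in illuminated 35S:miR396a and 22.9 in illuminated Col-0. SIG5, a stress-responsive sigma factor, was not listed, at 16.02 FPKM in illuminated 35S:miR396a and 9.84 in illuminated Col-0.

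The tetrapyrrole pathway, which makes chlorophyll and heme, was lower for 23 of 30 members, with 1 higher, against backgrounds of 10.7% and 14.2%. CHLH, the porphyrin-binding subunit of magnesium chelatase, had 79.6 FPKM in illuminated 35S:miR396a and 555 in illuminated Col-0, with 83.9 in dark 35S:miR396a and 83.5 in dark Col-0. GUN4, which activates that chelatase, had 36.4 FPKM in illuminated 35S:miR396a and 195 in illuminated Col-0. HEMA1, which begins the pathway, had 81.1 FPKM in illuminated 35S:miR396a and 279 in illuminated Col-0. The reductase PORC, active in the light, had 12.1 FPKM in illuminated 35S:miR396a and 90.4 in illuminated Col-0. FC1, the ferrochelatase of heme synthesis outside the chlorophyll branch, was the exception, at 84.1 FPKM in illuminated 35S:miR396a, 31.4 in illuminated Col-0, 28.8 in dark 35S:miR396a and 83.2 in dark Col-0, and its ratio after light was under 2-fold with centring. PORA, the protochlorophyllide reductase of dark-grown seedlings, was not listed after light at 10.2 FPKM in 35S:miR396a and 5.93 in Col-0, but was listed lower in the dark, at 161 in 35S:miR396a and 849 in Col-0. In carotenoid synthesis, whose products quench excited chlorophyll, 7 of 12 were listed lower, led by LUT5 at 11.4 FPKM in illuminated 35S:miR396a and 68.0 in illuminated Col-0.

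The promoters are described by their letters. In the 300 bases from 250 before to 50 after the annotated start, on either strand, the G-box CACGTG was found in 7.68% of 27431 promoters, and the I-box GATAAG in 14.7%. Among photosystem subunits 11 of 22 held a G-box and 12 of 22 an I-box. Among the Calvin cycle genes 4 of 20 held a G-box and 7 of 20 an I-box. Other lists that were mostly lower differed in their G-boxes. Flavonoid genes held one in 8 of 20, antenna genes in 4 of 21, tetrapyrrole genes in 4 of 30 and photorespiration genes in 2 of 12. Shares nearer to or below that of all promoters were 1 of 12 electron carriers, 1 of 12 carotenoid genes, 2 of 22 chloroplast ribosomal proteins and none of 12 plastid regulators. I-boxes differed likewise. They were in 7 of 12 electron carriers, 9 of 22 chloroplast ribosomal proteins, 4 of 12 plastid regulators and 6 of 21 antenna genes. Tetrapyrrole genes held one in 6 of 30, photorespiration genes in 2 of 12 and carotenoid genes in 2 of 12. Flavonoid genes, with 2 of 20, were below the share of all promoters. The highest G-box share of any list was in the seed reserves, which were higher, at 8 of 13. Of all promoters of listed genes, 12.1% of those higher and 8.197% of those lower held a G-box, while 14.9% of those higher and 20.3% of those lower held an I-box. Shown are the 250 bases before the start of PSAH2, with its G-boxes in capitals, and of RBCS2B, with its I-boxes in capitals, the members with the largest loss in their lists among those that hold the motif before the start (RefSeq TAIR10.1).
PSAH2 (chr1:19454548-19454797, plus strand): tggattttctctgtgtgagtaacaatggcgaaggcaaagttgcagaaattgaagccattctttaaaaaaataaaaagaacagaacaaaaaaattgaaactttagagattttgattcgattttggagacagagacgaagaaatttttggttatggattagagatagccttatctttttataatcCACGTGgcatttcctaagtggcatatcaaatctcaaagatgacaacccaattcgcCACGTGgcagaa
RBCS2B (chr5:15382072-15382321, minus strand): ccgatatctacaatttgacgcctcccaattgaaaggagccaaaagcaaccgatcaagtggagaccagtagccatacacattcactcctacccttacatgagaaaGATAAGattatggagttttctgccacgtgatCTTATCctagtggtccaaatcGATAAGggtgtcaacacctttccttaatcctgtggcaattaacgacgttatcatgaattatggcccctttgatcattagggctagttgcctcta
A match in these windows says nothing of whether a factor binds there.

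Heat-shock proteins held 6 of the 10 largest ratios among genes with a symbol and at least 10 FPKM in the larger group. These chaperones bind unfolding proteins and are made when proteins are damaged by heat or oxidation. Of 19 heat-shock proteins and chaperones, 15 were listed higher in illuminated 35S:miR396a and none lower. The median log2 ratio of the 16 above 0 in both illuminated groups was 6.49, or 5.32 with 1 FPKM added to each value. HSP21, the small heat-shock protein of the chloroplast, had 47.1 FPKM in illuminated 35S:miR396a and 0.0900 in illuminated Col-0, with 0.1 in dark 35S:miR396a and 0.180 in dark Col-0. HSP23.6-MITO, its mitochondrial counterpart, had 207 FPKM in illuminated 35S:miR396a and 0.446 in illuminated Col-0. The cytosolic HSP17.6A stood at 332 FPKM in illuminated 35S:miR396a, 2.21 in illuminated Col-0, 0.783 in dark 35S:miR396a and 1.47 in dark Col-0. HSP17.4, also cytosolic, had 520 FPKM in illuminated 35S:miR396a and 3.52 in illuminated Col-0. For most of the small heat-shock proteins the 3 other groups thus lay far below illuminated 35S:miR396a.

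The larger chaperones had smaller ratios and were higher in dark Col-0 than in dark 35S:miR396a. HSP70-4 had 777 FPKM in illuminated 35S:miR396a, 78.0 in illuminated Col-0, 21.98 in dark 35S:miR396a and 179.9 in dark Col-0. HSP101, which dissolves aggregates, had 189 FPKM in illuminated 35S:miR396a, 9.08 in illuminated Col-0, 5.80 in dark 35S:miR396a and 31.1 in dark Col-0. Of the 19 heat-shock proteins, 7 were listed lower in 35S:miR396a in the dark, and 6 of the 15 higher after light were among them. The unfolded-protein chaperone BIP3 was not listed, at 5.24 FPKM in illuminated 35S:miR396a and 2.90 in illuminated Col-0. Of 15 heat-shock transcription factors 8 were listed higher and none lower. HSFA2, the factor that sustains the heat response, led at 109 FPKM in illuminated 35S:miR396a, 2.60 in illuminated Col-0, 1.03 in dark 35S:miR396a and 21.01 in dark Col-0.

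The heat-shock element, read here as 3 alternating blocks of GAA and TTC with 2 bases between blocks, in either phase, was found in 0.478% of all promoters. It was found in 1.03% of the promoters of genes listed higher and 0.376% of those listed lower. Among the 19 heat-shock proteins and chaperones 3 held it (HSP17.4, HSP17.6C and HSP70-4), and among the 15 heat-shock factors 3 held it (HSFA2, HSFA7A and HSFA7B). The 250 bases before the start of HSP17.6C, at 265 FPKM in illuminated 35S:miR396a and 1.52 in illuminated Col-0, are shown with the element in capitals because it had the largest ratio of the 3 proteins.
HSP17.6C (chr1:19980049-19980298, plus strand): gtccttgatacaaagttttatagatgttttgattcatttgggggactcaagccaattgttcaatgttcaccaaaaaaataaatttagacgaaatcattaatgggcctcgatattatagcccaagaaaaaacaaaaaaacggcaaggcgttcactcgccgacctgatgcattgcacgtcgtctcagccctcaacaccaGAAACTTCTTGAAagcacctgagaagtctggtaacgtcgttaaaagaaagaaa

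**Figure D2:**
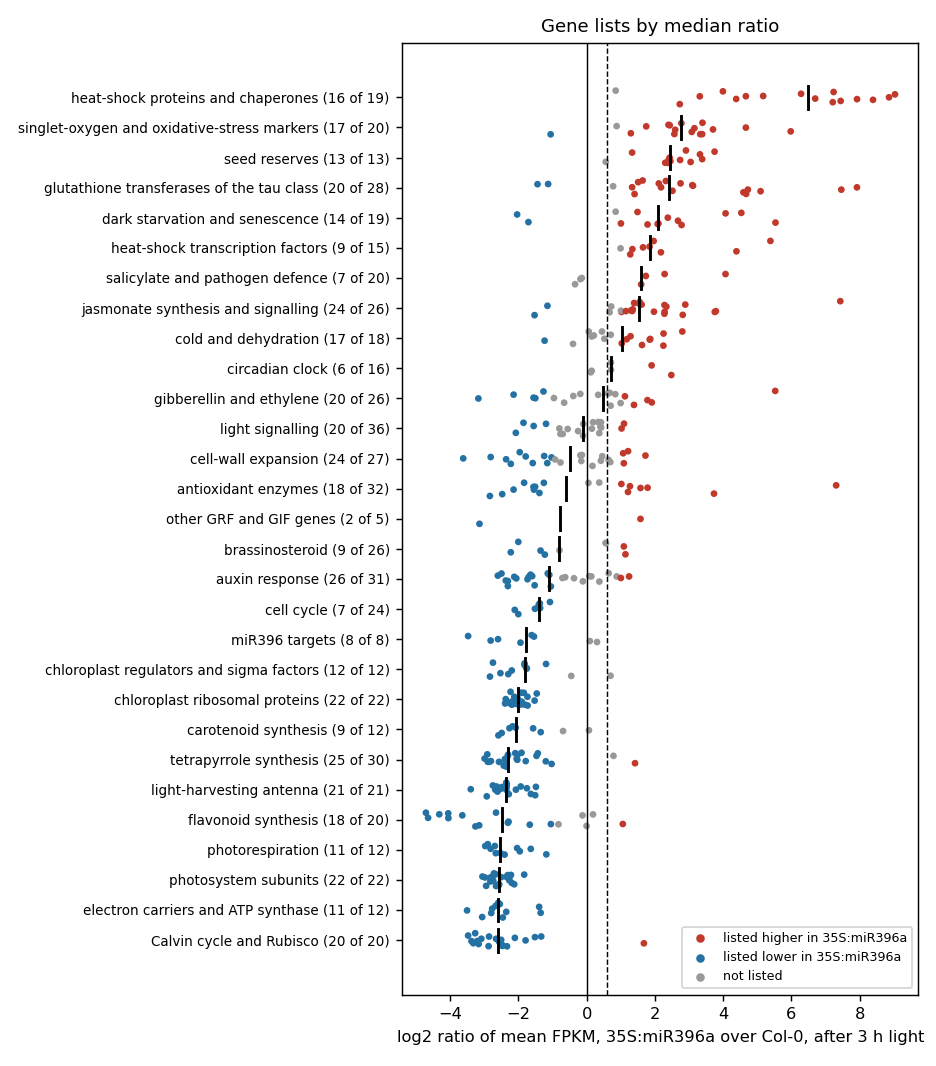
Log2 ratio of mean FPKM, 35S:miR396a over Col-0 after 3 h of light, for each list member with a value above 0 in both groups (points, with their number of all members beside the name), sorted by the list median (black tick); the dashed line is the median of all genes with both values, 0.61. Heat-shock proteins and chaperones have the highest median at 6.49 and Calvin cycle genes the lowest at −2.61.

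Genes that mark singlet oxygen and oxidative stress were higher, for 15 of 20 members, with 1 lower (EX1, the plastid protein needed for signalling by singlet oxygen, at 15.9 FPKM in illuminated 35S:miR396a and 33.0 in illuminated Col-0). ZAT12, a zinc-finger factor that answers many stresses, had 175 FPKM in illuminated 35S:miR396a, 16.65 in illuminated Col-0, 22.2 in dark 35S:miR396a and 83.2 in dark Col-0. UGT74E2, a glucosyltransferase induced by hydrogen peroxide, had 106 FPKM in illuminated 35S:miR396a, 4.196 in illuminated Col-0, 4.18 in dark 35S:miR396a and 3.69 in dark Col-0. AOX1A, the alternative oxidase of mitochondria, stood at 204 FPKM in illuminated 35S:miR396a and 29.8 in illuminated Col-0. BAP1, which is often used to report singlet oxygen, had 7.02 FPKM in illuminated 35S:miR396a and 2.09 in illuminated Col-0, but had 3.64 in dark 35S:miR396a and 37.1 in dark Col-0. In the dark 13 of the 20 were listed lower in 35S:miR396a, and 11 of the 15 higher after light were among these 13.

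Glutathione transferases of the tau class, which attach glutathione to toxic compounds, were higher for 17 of 28 members and lower for 2 (GSTU18 and GSTU20). GSTU19 had the second largest gain in FPKM of all listed genes, at 4449 FPKM in illuminated 35S:miR396a and 513 in illuminated Col-0, with 552 in dark 35S:miR396a and 471 in dark Col-0. GSTU24 had 301 FPKM in illuminated 35S:miR396a, 11.4 in illuminated Col-0, 28.6 in dark 35S:miR396a and 20.4 in dark Col-0. GSTU11 had 12.1 FPKM in illuminated 35S:miR396a and 0.05 in illuminated Col-0. GSTU3 had 4.58 FPKM in illuminated 35S:miR396a and 0.026 in illuminated Col-0, resting on 600 pooled reads in illuminated 35S:miR396a and 3 in illuminated Col-0. Tau-class genes lie in clusters of close copies between which reads can be split, as can those of the HSP17 genes, so single values there are uncertain. GSTU18 was lower, at 8.46 FPKM in illuminated 35S:miR396a and 22.9 in illuminated Col-0.

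The antioxidant enzymes were divided: of 32, 7 were higher and 9 lower, and 3 higher after centring. Higher were the stress-induced ascorbate peroxidase APX2, at 17.45 FPKM in illuminated 35S:miR396a and 0.110 in illuminated Col-0, and the cytosolic APX1, at 1325 FPKM in illuminated 35S:miR396a and 549 in illuminated Col-0. DHAR2, a dehydroascorbate reductase, had 312 FPKM in illuminated 35S:miR396a and 23.5 in illuminated Col-0. APX5, CSD1, CSD2 and GR1 completed the 7. The 9 that were lower were APX4, PRXQ, TAPX, 2CPB, DHAR3, APX6, 2CPA, FSD3 and FSD2. Most of these are known as plastid proteins, among them the peroxiredoxin PRXQ at 50.6 FPKM in illuminated 35S:miR396a and 280.3 in illuminated Col-0. The thylakoid ascorbate peroxidase TAPX had 8.65 FPKM in illuminated 35S:miR396a and 38.1 in illuminated Col-0. CSD2, known as the plastid copper and zinc superoxide dismutase, was among the higher ones at 129 FPKM in illuminated 35S:miR396a and 55.7 in illuminated Col-0.

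Jasmonate genes were called in opposite directions in light and dark. Jasmonate is a wound and defence hormone made from plastid lipids, and JAZ proteins repress its response while being induced by it. After light, 19 of 26 were listed higher in 35S:miR396a and 2 lower, beside the background of 14.2% and 10.7% (11 higher after centring), while in the dark 20 of the 26 were listed lower in 35S:miR396a and 1 higher, beside a dark background of 4.34% and 3.23%. Of the 19, 17 were among the 20. AOC3, an allene oxide cyclase of jasmonate synthesis, had 29.03 FPKM in illuminated 35S:miR396a and 4.12 in illuminated Col-0, but had 8.26 in dark 35S:miR396a and 76.4 in dark Col-0. JAZ1 stood at 68.4 FPKM in illuminated 35S:miR396a and 13.5 in illuminated Col-0, but at 20.7 in dark 35S:miR396a and 219 in dark Col-0. TAT3, a tyrosine aminotransferase that jasmonate induces, had 13.8 FPKM in illuminated 35S:miR396a, 0.0800 in illuminated Col-0, 0.0930 in dark 35S:miR396a and 4.88 in dark Col-0. LOX2 and AOC2 were the ones lower after light, LOX2 at 0.866 FPKM in illuminated 35S:miR396a and 2.49 in illuminated Col-0.

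**Figure D3:**
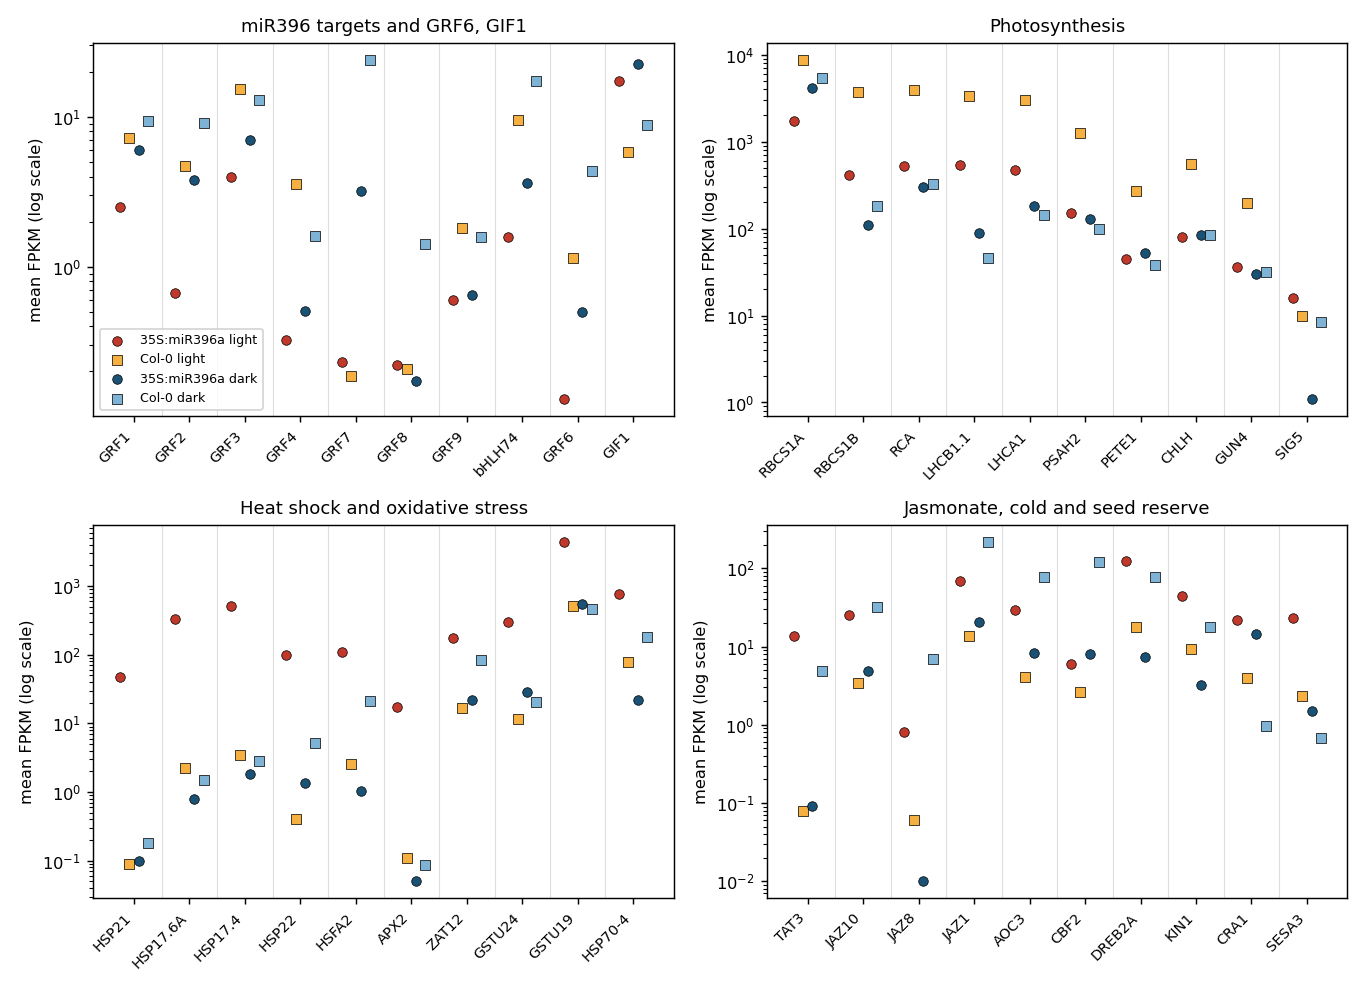
Mean FPKM (log scale) of 40 genes in illuminated 35S:miR396a, illuminated Col-0, dark 35S:miR396a and dark Col-0, left to right within each gene, in 4 panels; points are the authors' group means, without error. HSP21, HSP17.6A and HSP17.4 are highest in illuminated 35S:miR396a, whereas ZAT12, JAZ1 and AOC3 are also high in dark Col-0, and PSAH2 and CHLH are high in illuminated Col-0.

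Cold and dehydration genes shared that contrast. After light 9 of 18 were listed higher in 35S:miR396a and 1 lower (COR15B), and in the dark 14 were listed lower, with all 9 among them. DREB2A, a factor of drought and heat responses, had 123 FPKM in illuminated 35S:miR396a, 17.56 in illuminated Col-0, 7.25 in dark 35S:miR396a and 77.2 in dark Col-0. CBF2, a cold-response factor, had 5.97 FPKM in illuminated 35S:miR396a and 2.64 in illuminated Col-0, but had 8.06 in dark 35S:miR396a and 120 in dark Col-0. DDF1, a relative of the CBF factors, was not listed after light but was at 0.220 FPKM in dark 35S:miR396a and 57.8 in dark Col-0. In the salicylate and pathogen list 5 of 20 were listed higher and none lower, or 3 higher with at least 1 FPKM in the larger group. Only 7 of the 20 members had a value above 0 in both illuminated groups. The median log2 ratio of these 7 was 1.599, or 0.37 with 1 FPKM added. The list held PAD3, of camalexin synthesis, at 7.72 FPKM in illuminated 35S:miR396a and 0.460 in illuminated Col-0.

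Genes of dark starvation and senescence were higher for 11 of 19 members, with 2 lower, both of chlorophyll breakdown (ACD2 and NYC1). Of other members linked to that process, NYE2 was listed higher, and NYE1 and PAO were not listed. ASN1, the asparagine synthetase of sugar starvation, had 147 FPKM in illuminated 35S:miR396a and 28.3 in illuminated Col-0, with 257 in dark 35S:miR396a and 231 in dark Col-0. NYC1, a chlorophyll b reductase, had 46.8 FPKM in illuminated 35S:miR396a and 152 in illuminated Col-0. Seed-reserve genes, whose products fill the embryo, were low in FPKM but higher for 12 of 13 members after light, and 10 of these 12 were also listed higher in the dark. OLEO3, the member not listed after light, was listed lower in the dark. The dark sum of the list was 76.4 FPKM in 35S:miR396a and 89.9 in Col-0, so by sum it was not higher there. SESA3, a seed albumin, had 23.01 FPKM in illuminated 35S:miR396a, 2.30 in illuminated Col-0, 1.48 in dark 35S:miR396a and 0.680 in dark Col-0. The globulin CRA1 stood at 21.9 FPKM in illuminated 35S:miR396a, 3.99 in illuminated Col-0, 14.3 in dark 35S:miR396a and 0.953 in dark Col-0.

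Flavonoid genes, whose products screen light, were lower for 13 of 20 members, with 1 higher. FLS1, flavonol synthase, had 1.85 FPKM in illuminated 35S:miR396a, 48.3 in illuminated Col-0, 1.73 in dark 35S:miR396a and 1.82 in dark Col-0. Chalcone synthase CHS, the pathway's first enzyme, had 19.7 FPKM in illuminated 35S:miR396a and 326 in illuminated Col-0, and DFR, of anthocyanin synthesis, had 1.32 FPKM in illuminated 35S:miR396a and 32.9 in illuminated Col-0. MYB111, a factor that turns on flavonol genes, stood at 0.163 FPKM in illuminated 35S:miR396a and 3.24 in illuminated Col-0, while MYB12, of the same kind, was the one listed higher, at 6.35 FPKM in illuminated 35S:miR396a and 3.04 in illuminated Col-0 (under 2-fold after centring). F3H, between chalcone synthase and FLS1 in the pathway, was not listed, at 66.7 FPKM in illuminated 35S:miR396a and 58.5 in illuminated Col-0.

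In the auxin list 15 of 31 were listed lower and 2 higher (GH3.1 and GH3.3, enzymes that conjugate auxin). The lower ones were 11 small auxin-up RNAs, which promote cell elongation, with IAA1, IAA3, IAA4 and the auxin carrier PIN3. SAUR50 had 6.50 FPKM in illuminated 35S:miR396a and 33.5 in illuminated Col-0, and SAUR64 had 0.476 FPKM in illuminated 35S:miR396a and 2.88 in illuminated Col-0. Of 27 cell-wall expansion genes 10 were lower and 4 higher (XTH5, XTH15, XTH18 and XTH19). XTH6, a xyloglucan-remodelling enzyme, had 2.91 FPKM in illuminated 35S:miR396a and 35.6 in illuminated Col-0, and XTH15 had 83.1 FPKM in illuminated 35S:miR396a and 39.0 in illuminated Col-0. All 7 cell-cycle genes listed of 24 were lower, among them MCM3, part of the helicase of DNA replication, at 1.99 FPKM in illuminated 35S:miR396a and 8.53 in illuminated Col-0.

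After centring, none of the higher members of the auxin, light-signalling and brassinosteroid lists and 1 of the 4 higher cell-wall genes stayed past 2-fold. In light signalling 4 of 36 were lower (PHOT1, PHOT2, PIF5 and SPA3) and 2 higher (HY5 and PHYD), with shares of 11.1% lower and 5.56% higher beside the background of 10.7% and 14.2%. PHOT1, a blue-light receptor of phototropism, had 11.5 FPKM in illuminated 35S:miR396a, 48.2 in illuminated Col-0, 95.1 in dark 35S:miR396a and 107 in dark Col-0. HY5, a factor that promotes photomorphogenesis, had 39.5 FPKM in illuminated 35S:miR396a and 19.4 in illuminated Col-0, but had 16.9 in dark 35S:miR396a and 60.0 in dark Col-0. Of 16 clock genes 2 were higher, CCA1 and PRR9, a share of 12.5% beside the background of 14.2%. Of 26 brassinosteroid genes 4 were lower (BEE2, BEE3, BR6OX1 and PRE1) and 2 higher (IBH1 and SOB7), shares of 15.4% and 7.69%. BEE2 had 7.27 FPKM in illuminated 35S:miR396a and 33.9 in illuminated Col-0, and CPD, of hormone synthesis, was not listed, at 77.8 FPKM in illuminated 35S:miR396a and 52.5 in illuminated Col-0. Gibberellin and ethylene genes split evenly, 5 higher and 5 lower of 26, from ERF1 at 3.68 FPKM in illuminated 35S:miR396a and 0.0800 in illuminated Col-0 to ACS4 at 0.073 FPKM in illuminated 35S:miR396a and 0.656 in illuminated Col-0. After centring 3 of the 5 higher remained past 2-fold.

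By ratio among genes with a symbol and at least 10 FPKM in the larger group, the 10 largest gains were HSP21, HSP23.6-MITO, HSP17.6II, FAMT, HSP22, GSTU11, TAT3, APX2, HSP17.6A and HSP17.4. HSP17.6C, which has no symbol in the annotation, stood outside that ranking. FAMT, a methyltransferase for farnesoic acid, had 22.5 FPKM in illuminated 35S:miR396a, 0.0900 in illuminated Col-0, 0.0960 in dark 35S:miR396a and 10.3 in dark Col-0. The 10 largest losses were FLS1, DFR, MRD1, DCF, FBA5, CHS, LDOX, 4CL3, PnsL3 and ESM1. Of these FLS1, DFR, CHS, LDOX and 4CL3 belong to phenylpropanoid and flavonoid synthesis. MRD1 was listed lower in both conditions, at 0.783 FPKM in illuminated 35S:miR396a against 19.5 in illuminated Col-0, and 1.01 in dark 35S:miR396a against 19.9 in dark Col-0. By difference in FPKM the largest gains were GRP3S, GSTU19, TCTP, UBQ3 and COR413-PM1. GRP3S, a glycine-rich protein, had 6142 FPKM in illuminated 35S:miR396a and 1617 in illuminated Col-0, with 5796 in dark 35S:miR396a and 5626 in dark Col-0. COR413-PM1, a cold-regulated membrane protein, had 3252 FPKM in illuminated 35S:miR396a and 1465 in illuminated Col-0. All 10 of the largest losses by difference were antenna or Rubisco genes, or Rubisco activase.

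A further 95 genes were listed at 0 in illuminated Col-0 and 40 at 0 in illuminated 35S:miR396a, for which no ratio is given. The highest of the first kind was AT2G22880, at 9.52 FPKM in illuminated 35S:miR396a. FdC1, a ferredoxin-like protein, was listed at 0 in illuminated 35S:miR396a and at 129.8 FPKM in illuminated Col-0, with 1.82 in dark 35S:miR396a and 38.8 in dark Col-0. An exact 0 in such a table can be a failed estimate, so these are levels as listed.

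**Figure D4:**
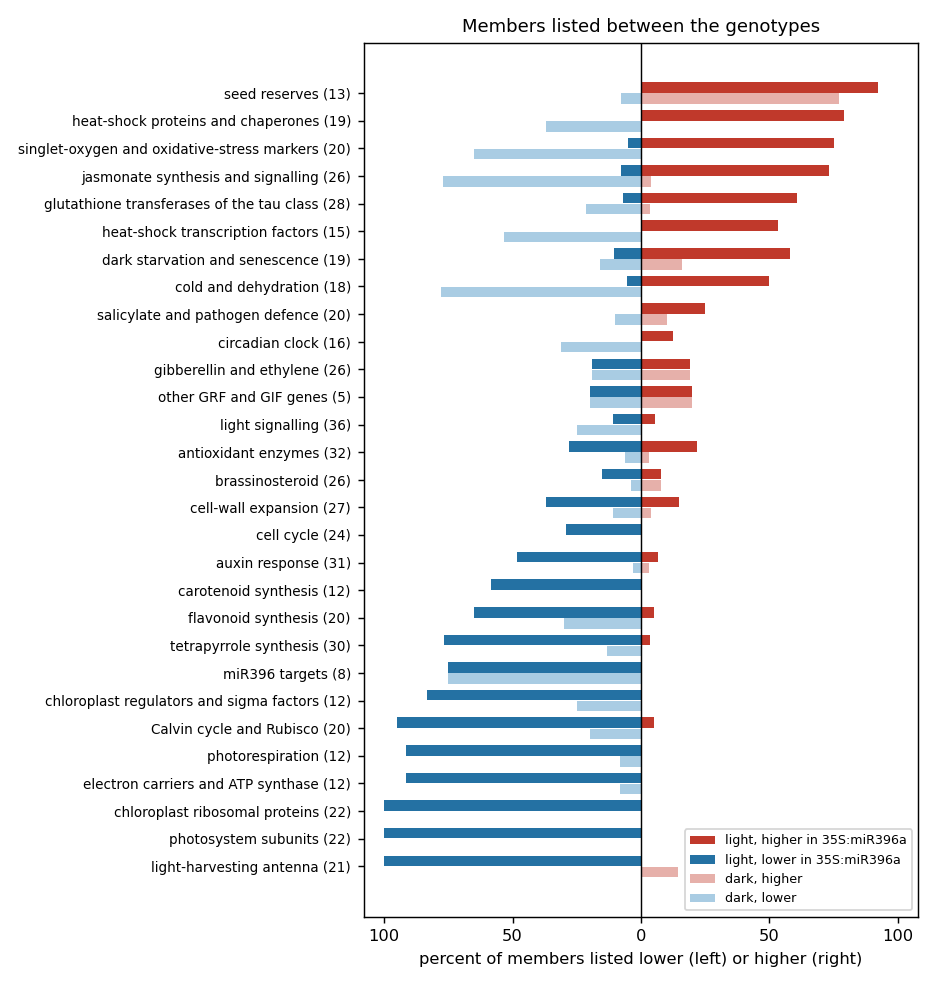
Percent of all members of each list (number of members beside the name) listed higher (right) or lower (left) in 35S:miR396a, in the light (upper bar of each pair) and in the dark (lower bar). In the jasmonate list 19 of 26 were higher in the light and 20 lower in the dark, while the 22 photosystem subunits were all lower in the light and none was listed in the dark.

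Across all genes, the dark genotype table, which shares no library with the light one, listed 2207 genes, 998 higher and 1209 lower in dark 35S:miR396a. Both tables listed 1315 genes, which is 18.8% of the light list and 59.6% of the dark list. Of these, 462 were higher in both and 217 lower in both. A further 530 were higher after light and lower in the dark, and 106 the reverse. The remaining 5689, or 81.2% of the light list, were listed after light and not in the dark, which does not show that they were equal in the dark. Among genes with a symbol in the annotation and at least 10 FPKM in the larger group of each table, ranked by the smaller of both ratios (a rule added after the values were seen), the first in the opposite class were FAMT, HSFA2 and GRX480. GRX480, a glutaredoxin of defence, had 54.3 FPKM in illuminated 35S:miR396a and 1.35 in illuminated Col-0, with 2.4 in dark 35S:miR396a and 46.6 in dark Col-0. CML38, a calmodulin-like protein, had 46.2 FPKM in illuminated 35S:miR396a, 4.12 in illuminated Col-0, 2.18 in dark 35S:miR396a and 83.6 in dark Col-0. Genes higher in both included GSTF7, another glutathione transferase, at 254 FPKM in illuminated 35S:miR396a and 10.9 in illuminated Col-0, and 146 in dark 35S:miR396a against 20.1 in dark Col-0. Those lower in both included the phosphate-response gene SPX1, at 5.80 FPKM in illuminated 35S:miR396a and 29.8 in illuminated Col-0, and 6.76 in dark 35S:miR396a against 37.6 in dark Col-0. GASA6, a gibberellin-regulated gene, was lower after light at 48.4 FPKM in 35S:miR396a and 299 in Col-0, and higher in the dark at 326 in 35S:miR396a and 97.0 in Col-0.

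**Figure D5:**
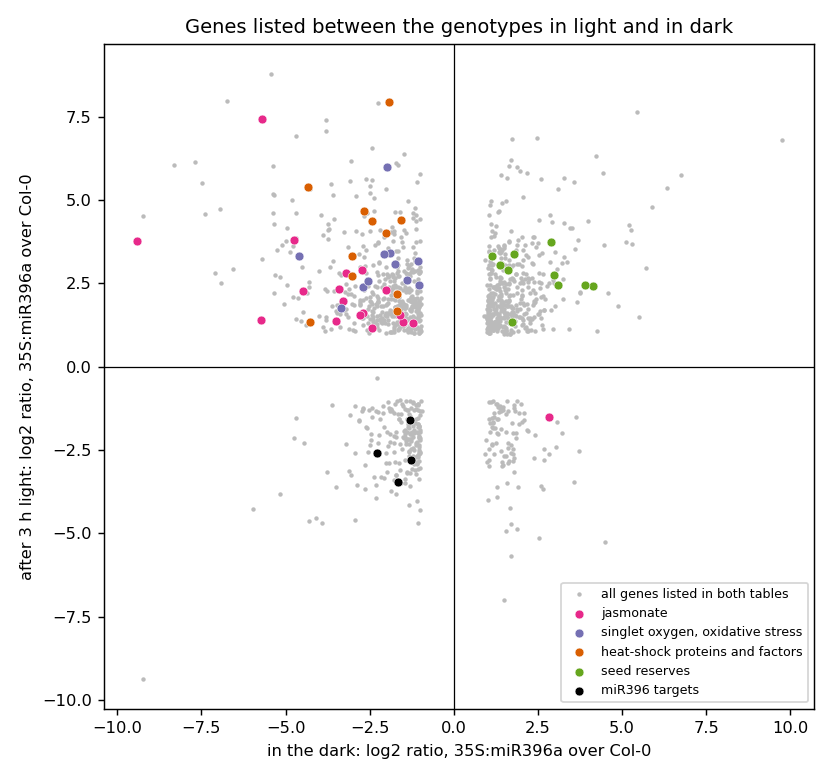
Log2 ratio of mean FPKM, 35S:miR396a over Col-0, after 3 h of light (vertical) against the dark (horizontal), for genes listed in both tables and above 0 in all groups; coloured points are members of 5 sets of genes. The upper left holds 17 jasmonate and 11 oxidative-stress members, the upper right 10 seed reserves, and the lower left 4 miR396 targets.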

How the data were processed

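RNA was sequenced from seedlings on the BGISEQ-500 platform, per the labels' protocols, and the submitters' processing notes name HISAT, Bowtie2 and the build TAIR10, without versions. Per the file headers, the deposited table of the pair holds the authors' mean FPKM of both groups, a DEGseq log2 fold change, a q-value and a p-value. The design text names NOISeq instead, so the sources disagree on the tool. The table lists called genes only. No model could be fitted, because the authors deposited group means: calls were counted and FPKM ratios, 35S:miR396a over Col-0, computed without a pseudocount. A gene's value in a group was taken from any of the 6 tables listing it; such values differed for 0 genes.

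Gene names and sequences came from RefSeq TAIR10.1, in which 6839 of 7004 identifiers matched. The 29 lists hold 592 members, 139 listed higher, 228 lower and 102 in no table. The members and lists were chosen with earlier results of these data known. Named genes follow a rule: all miR396 targets, GRFs and GIFs; the 10 largest ratios in each direction among genes with a symbol and at least 10 FPKM in the larger group; the 5 highest at 0 in one group; the 10 largest FPKM differences; per list up to 5 by ratio, up to 5 by FPKM and every exception. Unlisted genes and those taken from families were named after their values were seen. Pooled reads were solved from the authors' deposited folds and p-values under DEGseq's random-sampling model. Of 217 solved genes with under 30 reads, 87.6% came out whole within 0.05. The ratio of depths was fitted to make the reads of these genes whole, so this share was in part set by the fit. Depth came from 1410 genes with transcripts of at least 1500 bases and at least 100 reads per group. Counting error alone enters the p-values. Tools were Python 3.11.15, pandas 2.3.3, numpy 2.4.6, scipy 1.17.1 and matplotlib 3.10.9. Alternatives tried were a 4-fold limit, an FPKM minimum of 1, the FPKM ratio in place of the deposited fold, centring, nuclear genes only, and pseudocounts of 1 and 0.1.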

Additional observations from a re-analysis of the deposited data

How the results depend on the processing

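The tables hold group means only, so leaving out replicates was not possible and was not run. No paired analysis was possible because single libraries are not in the tables used here and the result comes from no test. The median ratio of genes with both values was 1.53, a log2 shift of 0.61, in favour of 35S:miR396a; these genes are those called in some table. With ratios centred on it and a 2-fold limit, 1992 listed genes were higher and the split became 40.3% higher and 59.7% lower, against 57.8% and 42.2% as reported. Centring was applied to listed genes only. It could thus remove higher calls but add no lower ones, and the change of the split follows in part from that. At 4-fold, 1377 genes were higher and 995 lower; list members numbered 82 higher and 144 lower; and the classes of both tables held 105 genes higher in both, 35 lower in both, 155 higher in light and lower in dark, and 16 the reverse. With at least 1 FPKM in the larger group, 256 were higher in both and 62 lower in light and higher in dark. After centring, 11 of 26 jasmonate genes, 3 of 32 antioxidant enzymes, 1 cell-wall gene and 3 gibberellin and ethylene genes stayed higher, and GIF1, FC1 and MYB12 fell under 2-fold. The median of GRF6 and GIF1, −0.78, became 0.25 with 1 FPKM added. Ratios of genes near 0 in one group shrank with a pseudocount of 1, as that of HSP21 to a log2 value of 5.46. At 4-fold, 15 of 19 heat-shock proteins, 21 of 22 photosystem subunits and 3 of 8 miR396 targets kept their call. Larger falls at 4-fold were those of the heat-shock factors (8 higher as reported, 3 at 4-fold), chloroplast ribosomal proteins (22 and 11 lower), jasmonate genes (19 and 9 higher), cold genes (9 and 3 higher), auxin genes (15 and 7 lower) and cell-cycle genes (7 and 1 lower). Depth limits calls under 30 pooled reads; the spread between replicates is unknown for all.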

Other observations

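Gene families not among the lists were counted by the product names of the annotation, after their values were seen. Their background is again 14.2% of protein-coding nuclear genes listed higher and 10.7% listed lower after light, and 4.34% listed lower in the dark. By product name 72 genes were counted as WRKY transcription factors, a family of regulators of defence and stress. Membership beyond the product name was not checked. Of the 72, 31 were listed higher in illuminated 35S:miR396a and 3 lower (AT4G31805, TTG2 and WRKY13). WRKY51 had 2.83 FPKM in illuminated 35S:miR396a and 0.0630 in illuminated Col-0. The W-box TTGACC or TTGACT, the sequence that WRKY factors are known to bind, was found on either strand in 32.4% of all promoters, in 40.1% of those of genes listed higher and in 28.2% of those listed lower. Lists that were mostly higher differed, with 15 of 28 tau-class genes, 10 of 20 oxidative-stress genes, 3 of 13 seed reserves and 2 of 19 heat-shock proteins. So did lists that were mostly lower, with 14 of 30 tetrapyrrole genes, 6 of 12 carotenoid genes, 4 of 22 photosystem subunits and 2 of 21 antenna genes. Of 73 EF-hand and calmodulin-like calcium-binding proteins 24 were higher and none lower, and 15 were listed lower in the dark. The EF-hand protein AT1G76640 had 72.4 FPKM in illuminated 35S:miR396a, 0.166 in illuminated Col-0, 0.813 in dark 35S:miR396a and 34.9 in dark Col-0. NAC factors were higher for 17 of 75 and lower for 2, and MATE efflux carriers higher for 22 of 55 and lower for 3. Peroxidases were higher for 22 of 62 and lower for 4.

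Lower in illuminated 35S:miR396a were 14 of 16 plastid transcriptionally active proteins, which accompany the plastid RNA polymerase, and 58 of 282 pentatricopeptide repeat proteins, which process organelle RNA, of which 3 were higher. PTAC16 had 38.9 FPKM in illuminated 35S:miR396a and 379 in illuminated Col-0. Of 13 FKBP-like isomerases 8 were lower and none higher. Of 78 SAUR-like auxin-responsive proteins 29 were lower and 10 higher, the latter a share of 12.8%, near the background of 14.2%. Of 35 HSP20-like chaperones, a family by product name that overlaps the heat-shock list in part, 15 were higher and 2 lower. Of 40 kinesins and microtubule motors 20 were lower and 2 higher, and of 33 NPH3-family proteins 13 were lower and none higher. All 25 chloroplast identifiers listed were higher, beside 57.8% of all listed genes. Their median log2 ratio was 1.28, under 2-fold after centring. They summed to 211 FPKM in illuminated 35S:miR396a and 87.6 in illuminated Col-0. Their dark sums were 228 FPKM in 35S:miR396a and 49.7 in Col-0. Of the 57 listed mitochondrial identifiers 54 were higher and 3 lower, beside 57.8% higher among all listed genes. Mitochondrial identifiers that were not listed were not counted. The 57 summed to 259 FPKM in illuminated 35S:miR396a and 27.4 in illuminated Col-0. Those with a dark value summed to 83.3 FPKM in dark 35S:miR396a (47 identifiers) and 31.2 in dark Col-0 (49 identifiers). Listed identifiers of new transcripts were higher for 64 and lower for 19. The identifiers of organelle genes do not match the reference used here.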
